A study of Mus musculus with 9 samples.

Results

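The 9 genes described here encode CXC chemokines (Cxcl1, Cxcl2, Cxcl3, Cxcl9, Cxcl10 and Cxcl16) and chemokine receptors (Cxcr4, Ccr1 and Ccr2). They were taken by gene symbol from a table of 54532 mouse genes. The cells were BV2, a line of immortalized microglia from the mouse, and their RNA was sequenced in a control, an OGD and an OGD + A-485 group of 3 libraries each. OGD stands for oxygen-glucose deprivation, which the methods of the study describe as a chamber at 4% oxygen and medium low in glucose, with 4% serum, while control cells grew in medium with 10% serum. A-485 inhibits the catalytic activity of the histone acetyltransferase P300, and the study asked whether blocking P300 alters the inflammatory state of deprived microglia. The dose of 50 μM and the time of 24 h are stated for earlier experiments of the study and not again for the transcriptome. Oxygen, glucose and serum changed together between control and OGD, so their shares cannot be told apart, and no group with A-485 alone was analysed here. All libraries come from 1 cell line, and the labels do not say whether the replicates were separate cultures, so the p-values measure the spread between these libraries, which may be technical.

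Expression is given as FPKM (fragments scaled to gene length and library depth). Each library held between 12593250 and 16091038 reads on genes. Of 14 microglia and macrophage markers, 12 had a mean of at least 1 FPKM, while the homeostatic marker P2ry12 averaged 0.105 FPKM and Sall1 had at most 1 read in a library. Their summed level was 490 to 510 FPKM in control, 622 to 641 under OGD and 1159 to 1187 with A-485 added, and the part of this shift in the values below was not tested. No marker listed for astrocytes, neurons, oligodendrocytes, endothelial cells, neutrophils or T cells reached a mean of 1 FPKM over the 9 libraries. Of the 5 neutrophil markers, S100a8 had 0 to 1 reads in control, 1 to 4 under OGD and 14 to 29 with A-485 added. Its mean over all libraries, by which genes were admitted to the test, came mostly from the OGD + A-485 group. The group means were 0.0337 FPKM in control, 0.222 under OGD and 1.94 with A-485 added, so no test of it is given. The summed neutrophil markers came to 0.0808 to 0.326 FPKM in control, 0.247 to 0.533 under OGD and 1.38 to 2.84 with A-485 added, while Ly6g and S100a9 were at 0 reads in all libraries, and their part in the values below was not tested either. In such bulk libraries, fewer cells expressing a gene and less RNA of it per cell cannot be told apart.

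Chemokines are small secreted proteins that bind G protein-coupled receptors and direct the movement of leukocytes. Cxcl1, Cxcl2 and Cxcl3 carry the ELR motif, signal through Cxcr2 and are best known for attracting neutrophils. Cxcl9 and Cxcl10 signal through Cxcr3 and are classical interferon-induced attractants of T cells. Cxcl16 is made as a membrane-bound protein, can be shed by ADAM proteases and binds Cxcr6. Among the receptors, Cxcr4 binds Cxcl12, Ccr1 binds several CC chemokines of the macrophage inflammatory protein type, and Ccr2 binds Ccl2 and its relatives and marks infiltrating monocytes more than resident microglia.

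The CXC ligand genes other than Cxcl16 lie on chromosome 5. Their upstream sequences are shown because the ELR ligands share a motif there while their RNA levels were far apart. The sequences are from RefSeq (GRCm38.p6), read 5′ to 3′ on the strand of the gene and ending before the start given by RefSeq or by the table, whichever lies further upstream, with matches to the NF-κB consensus and, for Cxcl10, to the core of the interferon-stimulated response element (AAANNGAAA) in capitals.
Cxcl1, chr5:90891121-90891240, plus strand: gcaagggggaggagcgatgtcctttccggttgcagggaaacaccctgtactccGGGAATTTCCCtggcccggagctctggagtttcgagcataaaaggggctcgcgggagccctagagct
Cxcl2, chr5:90903751-90903870, plus strand: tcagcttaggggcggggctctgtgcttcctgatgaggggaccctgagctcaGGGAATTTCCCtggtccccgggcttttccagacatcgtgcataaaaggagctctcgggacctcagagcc
Cxcl3, chr5:90785981-90786100, plus strand: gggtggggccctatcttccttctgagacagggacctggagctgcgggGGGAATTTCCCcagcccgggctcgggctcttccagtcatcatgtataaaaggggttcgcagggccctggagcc
Cxcl10, chr5:92348890-92349119, minus strand: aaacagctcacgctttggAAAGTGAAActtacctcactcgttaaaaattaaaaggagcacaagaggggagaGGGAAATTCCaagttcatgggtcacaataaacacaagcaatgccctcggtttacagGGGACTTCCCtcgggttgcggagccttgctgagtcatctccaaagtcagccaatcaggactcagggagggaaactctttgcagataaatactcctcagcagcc

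Cxcl1, Cxcl2 and Cxcl3 held the same run of 11 bases, GGGAATTTCCC, which begins 71, 97 and 73 bases before the RefSeq start in that order. For Cxcl1 and Cxcl2, 4 and 28 bases between the end of the printed window and the RefSeq start are not printed, and for Cxcl3 and Cxcl10 the window ends at that start. This run, on either strand, occurs in 14 of 32851 promoters (0.0426%) over the 250 bases before the start. The NF-κB consensus that it contains on both strands, with the matches overlapping by all but the outer bases, is found in 3.90% of these promoters. Cxcl10 held 2 other NF-κB matches, 159 and 103 bases before the RefSeq start, and AAAGTGAAA 212 bases before it, where AAANNGAAA occurs in 9.37% of promoters. Of the 9 genes, 8 had a promoter in the table, and Cxcl16 had none. Ccr1 held 2 matches to AAANNGAAA, 208 and 98 bases before its RefSeq start. No NF-κB match lay in the searched window of Cxcl9, Cxcr4, Ccr1 or Ccr2. These matches describe letters and are not measured binding sites.

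Of the 9 genes, 5 had a mean of at least 0.2 FPKM over all libraries and were tested: Cxcl2, Cxcl10, Cxcl16, Ccr1 and Cxcr4. The other 4 (Cxcl1, Cxcl3, Cxcl9 and Ccr2) were at or near the limit of detection. A change was called where the p-value before adjustment was below 0.01 and the log2 fold change exceeded 0.5 in size, by limma on log2(FPKM + 0.1) of 16123 genes. In OGD against control, 2 genes were called higher and 0 lower, where 11.2% of all tested genes were called higher and 9.81% lower. In OGD + A-485 against OGD, 1 was called higher and 3 lower, where the shares of all genes were 12.2% and 13.4%. In OGD + A-485 against control, 2 were called higher and 2 lower, where the shares were 17% and 16.6%. The comparisons share libraries, so the values below stand side by side and are not independent of each other.

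The order of the 5 genes by FPKM differed between the groups. In control, Cxcl2 was highest, followed by Cxcl10 (2.03 to 2.82 FPKM) and Ccr1 (1.73 to 2.11 FPKM), whose ranges overlapped, then Cxcr4 (1.40 to 1.67 FPKM) and Cxcl16. In OGD, Ccr1 stood in the second place, and Cxcr4 and Cxcl10 overlapped behind it. In OGD + A-485, no ranges overlapped, and the order was Cxcl2, Ccr1, Cxcr4, Cxcl16 and Cxcl10. Cxcl10 thus went from above Cxcl16 in each control and OGD library to below it in each OGD + A-485 library.

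**Figure D1:**
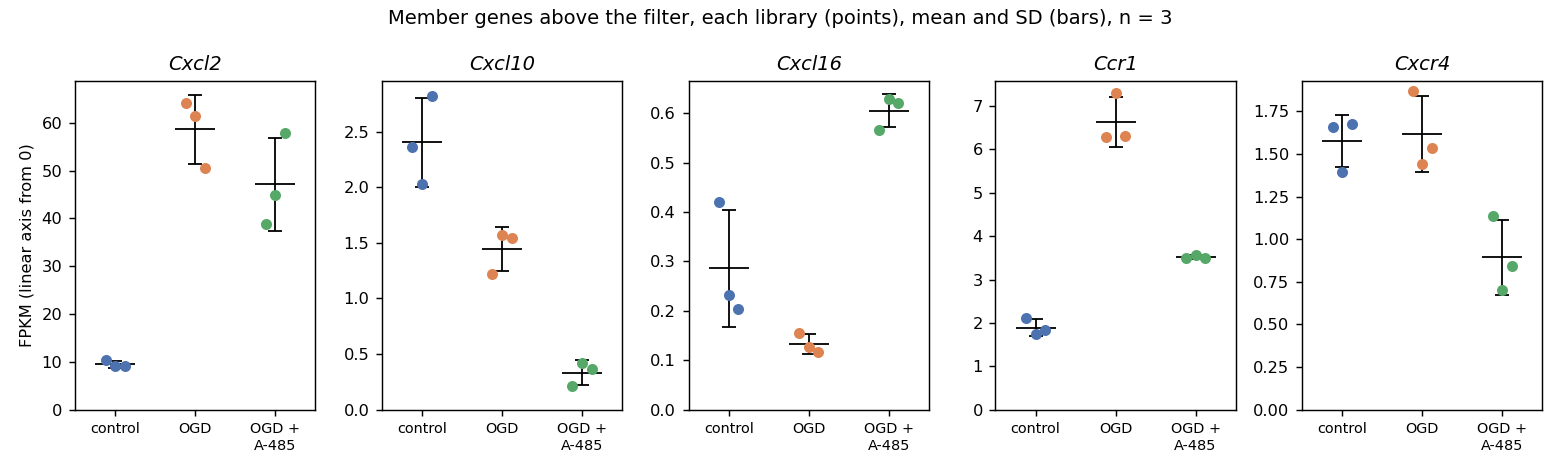
FPKM of the 5 tested genes in each library (points), with the mean and SD of the 3 libraries of a group (black bars), on linear axes that start at 0 and differ between genes. Cxcl2 and Ccr1 were higher in each OGD library than in each control library, Cxcl10 and Cxcr4 were lowest in OGD + A-485, and Cxcl16 was highest there.

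Cxcl2 (macrophage inflammatory protein 2; chromosome 5, 90903871 to 90905938, plus strand, in the GRCm38 coordinates of the table) was the most abundant of the 9 genes in every library. Its levels in the 3 libraries were 10.4, 9.06 and 9.08 FPKM in control, 64.2, 61.4 and 50.5 under OGD and 38.8, 44.9 and 57.9 with A-485 added. All OGD libraries lay above all control libraries, while the highest OGD + A-485 library lay above the lowest OGD library. The mean rose from 9.50 ± 0.741 (SD, n = 3) to 58.7 ± 7.24 FPKM (n = 3) with OGD, a ratio of 6.18. On the log2(FPKM + 0.1) scale the rise was 2.61 (SE 0.14; limma adjusted p = 2.76e-06). With A-485 the mean was 47.2 ± 9.72 FPKM (n = 3), and the difference from OGD was -0.33 (SE 0.14, 95% interval -0.66 to 0.0043; limma adjusted p = 0.0938), which was not called. Its difference from control was still 2.28 (limma adjusted p = 1.74e-06). The OGD rise of Cxcl2 thus held with the inhibitor present, and a decrease of up to 0.66 under A-485 is within the interval.

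Cxcl1 and Cxcl3, the neighbours of Cxcl2 with the same 11-base run upstream, gave almost no reads. Cxcl1 (also known as KC) had 1, 0 and 0 reads in control, 0, 0 and 1 under OGD and 0, 0 and 1 with A-485 added. Cxcl3 had 0, 0 and 2 reads in control, 1, 6 and 1 under OGD and 0, 2 and 2 with A-485 added. Only 1 of these libraries, OGD replicate 2 with 6 reads of Cxcl3, exceeded 3 reads, the count taken as the limit of detection in a library. A level of 3 reads corresponds to at most 0.126 FPKM for Cxcl1 and 0.0674 FPKM for Cxcl3, so lower levels were not detectable at this depth and no fold change is given. Cxcl2 took from 99.3% (95% Wilson interval 97.6 to 99.8) to 100% (98.6 to 100) of the reads on Cxcl1, Cxcl2 and Cxcl3 in control. In OGD and OGD + A-485 it took between 99.6% and 100%, and these intervals cover counting error only. Cxcl2 and Cxcl3 shared 108 windows of 50 bases, 5.35% of the Cxcl2 and a smaller part of the Cxcl3 transcript sequence, and Cxcl1 shared none with any gene. Of the other listed ELR ligands, Cxcl5 and Cxcl15 were at 0 reads in all libraries and Ppbp had at most 3 reads in a library.

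**Figure D2:**
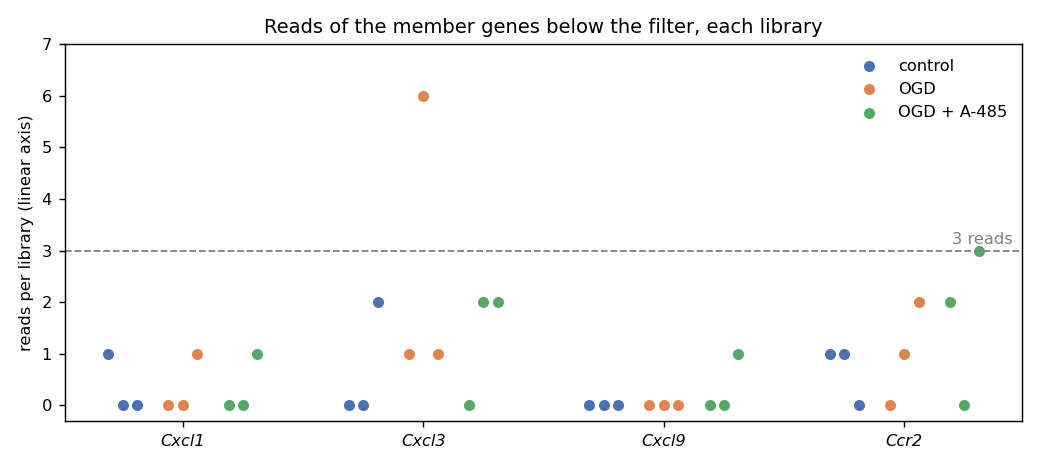
Reads of Cxcl1, Cxcl3, Cxcl9 and Ccr2 in each library (points), with a dashed line at 3 reads. Each point lies at or below the line except Cxcl3 in 1 OGD library, which had 6 reads.

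Cxcr2, the receptor of the ELR ligands, fell with OGD. Its level was 1.03, 1.15 and 1.11 FPKM in control and 0.619, 0.378 and 0.420 FPKM in OGD, with no overlap. This difference was -1.09 on the log2 scale (SE 0.25; limma adjusted p = 0.00675) and was called lower. In OGD + A-485, each library had 2 reads of Cxcr2, below the limit of detection, against 15 to 24 reads in OGD, and limma called it lower there too (adjusted p = 0.000194). Cxcl2 and Cxcr2 RNA in this line thus differed from control in opposite directions in both treated groups.

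Cxcl10, the interferon-induced ligand of Cxcr3, fell with A-485, and its OGD levels lay below control without passing the threshold. It was measured at 2.36, 2.03 and 2.82 FPKM in control, 1.22, 1.57 and 1.55 under OGD and 0.213, 0.422 and 0.370 with A-485 added. The 3 groups did not overlap. By limma, the difference between OGD and control was -0.69 (SE 0.22; adjusted p = 0.0334), and its unadjusted p of 0.0139 missed the unadjusted threshold of 0.01, although it was called in 5 of 21 alternative settings. From OGD to OGD + A-485, the mean went from 1.45 ± 0.195 to 0.335 ± 0.109 FPKM (SD, n = 3 each), 4.32 times lower, and Cxcl10 fell by 1.86 on the log2 scale (SE 0.22; limma adjusted p = 0.000143). Against control, OGD + A-485 was lower by -2.55 on that scale (limma adjusted p = 1.37e-05). The reads behind these values were 65 to 103 in control, 35 to 49 under OGD and 7 to 15 with A-485 added.

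Cxcl10 (chromosome 5, 92346638 to 92348889, minus strand) lies within Art3, an ADP-ribosyltransferase gene on the other strand, and it shares 3.85% of its 50-base windows with other transcripts. Art3 had 37, 30 and 42 reads in control, 9, 10 and 16 under OGD and 1, 0 and 0 with A-485 added. Its level was 0.704, 0.535 and 0.660 FPKM in control, 0.180, 0.195 and 0.289 under OGD and 0.0174, 0 and 0 with A-485 added. It passed the filter on the mean through its control level, so no test of it is given. Its groups followed the same order as those of Cxcl10. Whether counting used the strand is not given in the sources used here, so reads from the shared stretch cannot be told apart.

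Cxcl9, the other interferon-type member, was at 0 reads in 8 libraries and had 1 read in OGD + A-485 replicate 3. For this gene, 3 reads correspond to at most 0.0781 FPKM. Cxcl11, the third ligand of Cxcr3, had at most 2 reads. Cxcr3 itself was measured at 3.33, 3.81 and 3.39 FPKM in control, 6.08, 4.79 and 4.68 under OGD and 2.06, 1.28 and 1.76 with A-485 added. Each OGD library was above each control library, but the difference of 0.54 (limma adjusted p = 0.0282) was not called. With A-485, Cxcr3 fell by 1.57 against OGD (SE 0.17; limma adjusted p = 7.1e-05). Ligand and receptor were thus both lower with A-485 than without it.

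Cxcl16 was the only tested member called higher in OGD + A-485 against OGD. Its level was 0.421, 0.232 and 0.204 FPKM in control, 0.156, 0.127 and 0.118 under OGD and 0.566, 0.629 and 0.620 with A-485 added, from 5 to 30 reads per library. The OGD libraries were the lowest and the OGD + A-485 libraries the highest, with no overlap. From OGD to OGD + A-485 the mean went from 0.134 ± 0.0200 to 0.605 ± 0.0337 FPKM (SD, n = 3 each), a ratio of 4.53. The rise was 1.60 on the log2(FPKM + 0.1) scale (SE 0.30; limma adjusted p = 0.00185), a scale that understates changes of so low a gene. The differences of -0.69 between OGD and control (limma adjusted p = 0.0917) and of 0.91 between OGD + A-485 and control (adjusted p = 0.027) were not called.

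Cxcl16 (chromosome 11, 70453983 to 70459984, minus strand) overlaps Zmynd15, a zinc finger gene on the other strand, and 20.02% of its 50-base windows also occur in other transcripts. Zmynd15 was measured at 0.509, 0.366 and 0.490 FPKM in control, 0.214, 0.279 and 0.258 under OGD and 1.60, 1.51 and 1.12 with A-485 added. Zmynd15 was called higher in OGD + A-485 against OGD (2.10, SE 0.22; limma adjusted p = 6.21e-05) and against control (1.44; adjusted p = 0.00047). The overlapping gene was thus more abundant than Cxcl16 and had the same order of groups. Reads of the pair cannot be told apart in the shared stretch without strand information, and the values of Cxcl16 are uncertain for that reason. Of the 3 listed genes of Cxcl16 shedding, Adam17 rose with A-485 against OGD (0.62; limma adjusted p = 1.06e-06), while Adam10 (-0.41) and Rhbdf2 (-0.07) were not called. The receptor Cxcr6 varied widely within groups, with 3 to 11 reads in control, 7 to 15 under OGD and 1 to 19 with A-485 added, and was not called in any comparison (limma adjusted p from 0.267 to 0.861).

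Cxcl2 made up most of the RNA of the 6 CXC ligand members. The summed level of the 6 ligand genes was 11.3 to 13.2 FPKM in control, 52.2 to 65.6 under OGD and 39.6 to 58.9 with A-485 added. The share of Cxcl2 in that sum was 74.8% to 80.1% in control, 96.7% to 97.9% under OGD and 97.6% to 98.2% with A-485 added. The sum therefore follows Cxcl2, and the shifts of Cxcl10 and Cxcl16 are not visible in it. Among CXC ligands outside the 9 genes, Pf4 averaged 26.7, 40.1 and 76.8 FPKM and Cxcl14 8.12, 5.67 and 2.62 FPKM in control, OGD and OGD + A-485.

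Ccr1, a receptor for inflammatory CC chemokines on myeloid cells, rose with OGD and fell partway with A-485. Its level was 2.11, 1.73 and 1.83 FPKM in control, 6.29, 7.29 and 6.30 under OGD and 3.50, 3.58 and 3.50 with A-485 added. The 3 groups were separate, with OGD + A-485 in between. The mean rose from 1.89 ± 0.197 to 6.63 ± 0.575 FPKM with OGD (SD, n = 3 each), a ratio of 3.50 and a log2 difference of 1.76 (SE 0.09; limma adjusted p = 2.3e-06). With A-485 it fell by 0.89 against OGD (SE 0.09, 95% interval of the difference -1.10 to -0.68; limma adjusted p = 5.98e-05) to 3.53 ± 0.0425 FPKM (n = 3). It was 0.87 above control there (limma adjusted p = 4.84e-05). Ccr1 lies on chromosome 9 (123962124 to 123968692, minus strand), and its transcript shared no 50-base window with another gene.

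The genes around Ccr1 were on balance lower with A-485 too. The median difference of the 50 nearest tested genes was -0.39 in OGD + A-485 against OGD, and Ccr1 differed by -0.50 after this median was taken off, just past the limit on size. In OGD against control the neighbours' median was 0.10. Within 0.5 Mb of Ccr1 and Ccr2 on chromosome 9, the table holds 34 genes, of which 12 were tested. These include Ccr1 itself. With OGD, 2 were called higher, Ccr1 among them, and 0 lower, where the shares of all tested genes were 11.2% and 9.81%. With A-485 against OGD, 0 were called higher and 5 lower, Ccr1 among them, where the shares were 12.2% and 13.4%. The median difference of the 12 genes with A-485 was -0.61. Between Cxcl3 and Cxcl10 on chromosome 5 lie 49 genes of the table, both included, of which 17 were tested. There, 2 were called higher (Cxcl2 among them) and 3 lower with OGD, and 1 higher and 3 lower (Cxcl10 among them) with A-485. The 3 lower include Art3 in both comparisons, which overlaps Cxcl10 and passed the filter through its control level. The same shares of all tested genes apply, and Cxcl2 and Cxcl10 were the only tested chemokine genes of this region.

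**Figure D3:**
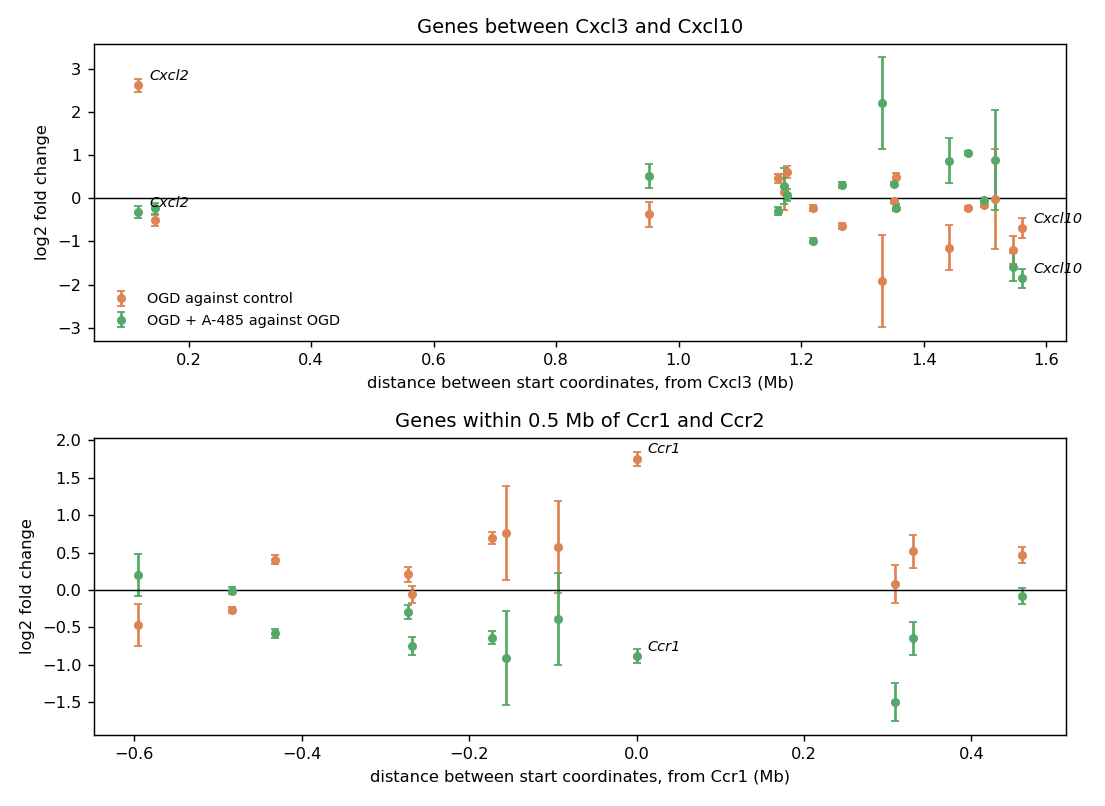
Log2 fold change (points) with standard error (bars) of the tested genes of the chromosome 5 ligand region (upper panel) and the chromosome 9 receptor region (lower panel), by distance from Cxcl3 or Ccr1 in Mb. Cxcl2 at 2.61 and Ccr1 at 1.76 are the highest points of their panels for OGD against control, and most genes around Ccr1 lie below 0 for OGD + A-485 against OGD. The upper panel includes Art3, which passed the filter through its control level.

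Cxcr4, the receptor of Cxcl12, did not pass the test with OGD. It was measured at 1.66, 1.40 and 1.67 FPKM in control, 1.87, 1.44 and 1.53 under OGD and 1.14, 0.700 and 0.844 with A-485 added. The control and OGD ranges overlapped, and each OGD + A-485 library lay below all others. The difference between OGD and control was 0.03 (SE 0.18, 95% interval -0.39 to 0.45; limma adjusted p = 0.918). With A-485, Cxcr4 fell by 0.80 against OGD (SE 0.18; limma adjusted p = 0.00588), to 0.893 ± 0.222 from 1.62 ± 0.224 FPKM (SD, n = 3 each), 1.81 times lower. Against control, it fell by 0.77 (limma adjusted p = 0.00605), a call lost with a pseudocount of 1 and without control replicate 1 or 3. The gene lies on chromosome 1 (128588199 to 128592293, minus strand) and shared no 50-base window with another gene. Its ligand Cxcl12 was at 0 reads in all 9 libraries, where 3 reads correspond to at most 0.0288 FPKM. Ackr3, the atypical receptor of Cxcl12, had at most 3 reads.

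Ccr2, the monocyte receptor of Ccl2, had 1, 1 and 0 reads in control, 0, 1 and 2 under OGD and 2, 0 and 3 with A-485 added. No library exceeded 3 reads, which correspond to at most 0.0349 FPKM, and no difference between the groups was detectable at this depth. The summed level of the 3 receptor genes was 3.14 to 3.78 FPKM in control, 7.85 to 8.75 under OGD and 4.28 to 4.66 with A-485 added.

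**Figure D4:**
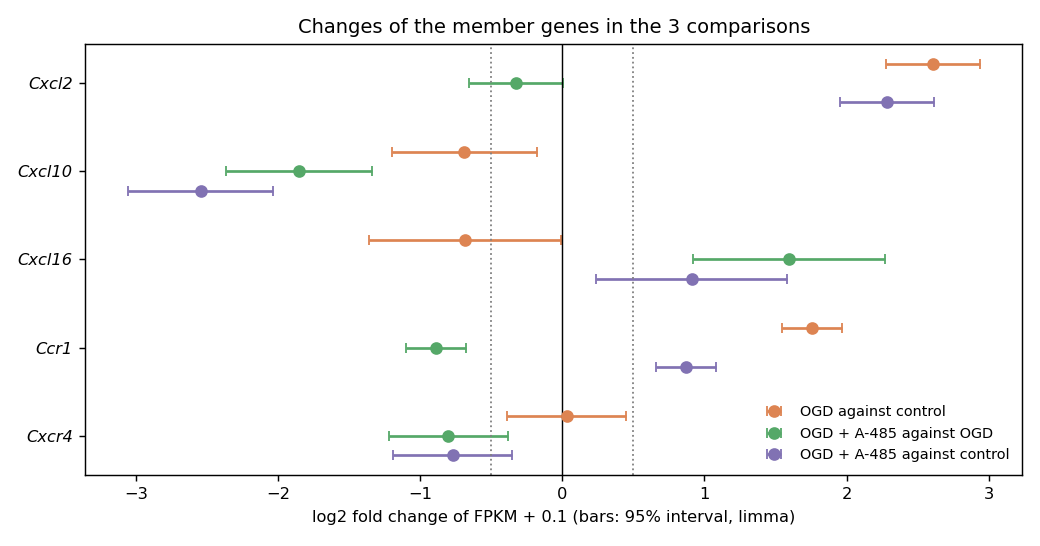
Log2 fold change of FPKM + 0.1 (points) with the 95% interval from limma (bars) of the 5 tested genes in the 3 comparisons, with dotted lines at -0.5 and 0.5. The interval of Cxcl2 in OGD + A-485 against OGD reaches 0, whereas those of Cxcl10, Cxcr4 and Ccr1 lie below 0 and that of Cxcl16 lies above it.

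Several CC ligands of Ccr1 and Ccr2 were far more abundant than the receptors. Ccl3, a ligand of Ccr1, averaged 2225 ± 141 (control), 5043 ± 536 (OGD) and 1942 ± 180 FPKM (OGD + A-485; SD, n = 3 each). Ccl2, the main ligand of Ccr2, averaged 399.9 ± 6.17, 772 ± 30.7 and 387 ± 40.6 FPKM in the same order. Of 7 such ligands, 6 were called higher with OGD (Ccl2, Ccl3, Ccl5, Ccl7, Ccl9 and Ccl12), by 0.81 to 1.76 on the log2 scale. With A-485 against OGD, 4 were called lower (Ccl2 by -0.999, Ccl3 by -1.38, Ccl7 by -1.66 and Ccl9 by -1.99) and Ccl6 was called higher (1.38). Of all tested genes, 11.2% were called higher with OGD, and 12.2% higher and 13.4% lower with A-485 against OGD. Ccr1 was thus higher with OGD and lower with A-485, as were 4 of these ligands, while Ccr2 stayed at the limit of detection beside its abundant ligand Ccl2.

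**Figure D5:**
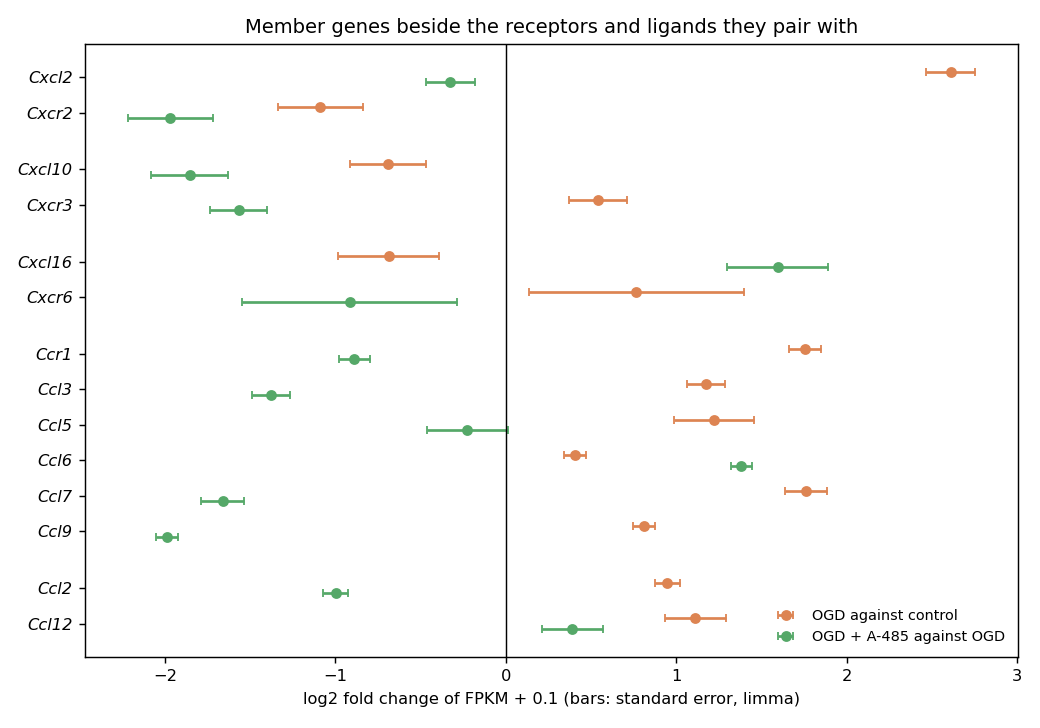
Log2 fold change (points) with standard error (bars, limma) of member genes and of the ligands or receptors they bind, for OGD against control and for OGD + A-485 against OGD. Cxcl2 and Cxcr2 lie on opposite sides of 0 for OGD, Cxcl10 and Cxcr3 both lie below 0 for A-485, and Ccl2, Ccl3, Ccl5, Ccl7 and Ccl9 lie on the side of Ccr1 in both comparisons. Cxcr2 had 2 reads in each OGD + A-485 library, so its fitted value there depends on the pseudocount.

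Beyond these pairs, 78 other genes of the chemokine system were listed and 55 were tested. With OGD, 17 were called higher and 3 lower, where the shares of all tested genes were 11.2% and 9.81%. The median difference was 0.17 against 0.01 over all genes tested. Next to Ccl7 (1.76), the largest rises, at mean levels of 1 FPKM or more, were those of the fractalkine receptor Cx3cr1 (1.39), of Rgs1 (1.37), which dampens G protein signalling, and of the chemerin-binding receptor Ccrl2 (1.28). The only falls called at that level were those of Zfp36l2 (-0.79) and Elavl1 (-0.61), which bind AU-rich elements of mRNA. The remaining gene called lower was Cxcr2.

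With A-485 against OGD, 12 of the 55 were called higher and 14 lower (median 0.20, and 0.01 over all genes). The shares of all tested genes were 12.2% and 13.4%. Among genes averaging 1 FPKM or more, the largest rises were those of Ccl6, Ccrl2 (1.25), the phosphoinositide 3-kinase subunit Pik3r5 (0.97) and platelet factor 4, Pf4 (0.93). At the same level, the largest falls were those of Ccl9, Ccl7, Cxcr3 and Ccl3. Against control, 24 of the 55 were called higher and 10 lower (median 0.25, and 0.02 over all genes), where the shares were 17% and 16.6%. Among genes averaging 1 FPKM or more, the largest rises were those of Ccrl2 (2.53), Cx3cr1 (2.22), Ccl6 (1.79) and Arrb1 (1.60), and the largest falls those of Cxcl14 (-1.60), Ccl9 (-1.18), Grk6 (-1.04) and Cxcr3 (-1.03). Among CXC ligands outside the 9 genes, Pf4 rose with OGD (0.58; limma adjusted p = 0.000751) and again with A-485. Cxcl14 was not called with OGD (-0.53) and fell with A-485 by 1.07 (limma adjusted p = 0.000593). Of the 4 tested CC receptors, Ccr1 and Ccrl2 were called higher with OGD. With A-485 against OGD, Ccrl2 was called higher, while Ccr1, Ccr4 (-1.56) and Ccr10 (-1.93) were called lower. Below 1 FPKM on average, Cxcr2, Ccr4 (-2.04) and Ccr10 (-1.91) were also called lower against control. In OGD + A-485, Ccr4 had 1 to 7 reads and Ccr10 3 to 10 reads per library, so their fitted values depend on the pseudocount.

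With OGD, 11.2% of all tested genes were called higher, and of 9 listed transcription regulators of CXC ligand genes 2 were called higher. These were the NF-κB inhibitor Nfkbia (0.62) and the inhibitor-related cofactor Nfkbiz (0.57), both known NF-κB target genes. With A-485 against OGD, Nfkbia was called lower (-0.50), and the interferon regulatory factor Irf1 (0.84) was called higher, while Cxcl10 fell in the same comparison. The NF-κB subunits Rela and Nfkb1 were not called in OGD against control or in OGD + A-485 against OGD. Rela averaged 20.6, 22.9 and 30.1 FPKM in control, OGD and OGD + A-485, and Nfkb1 14.6, 15.2 and 16.2 FPKM. Of 7 listed regulators of CXC ligand mRNA decay, Zfp36 (tristetraprolin, a destabilizing factor) was called higher with OGD (0.69) and lower with A-485 (-1.07). The endonuclease Zc3h12a (Regnase-1) was called higher with A-485 (0.72), and Auh was called lower (-0.63). Of 10 hypoxia response genes, 10 were called higher with OGD, and with A-485 against OGD only Egln3 was called (-2.65). The same share of 11.2% applies to OGD, and with A-485 against OGD 12.2% of all tested genes were called higher and 13.4% lower.

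For each of the 4 members averaging 1 FPKM or more, the genes with the most similar profile were found by the Euclidean distance over the 9 libraries, taken on log2 values centred on the control mean, among 10090 genes. Cxcl2 was nearest to Ero1l (distance 0.69), an endoplasmic reticulum oxidase, Klhl3 (0.88) and the glucose transporter Slc2a3 (0.95), where the median gene was at 6.14. Cxcl10 was nearest to Runx2 (0.70), Fam69b (0.82) and Depdc1b (0.85), with a median of 4.64. Ccr1 was nearest to Hecw2 (0.18), the inhibitory receptor gene Lilrb4a (0.27) and Lims2 (0.43), with a median of 3.59. Cxcr4 was nearest to Ehbp1 (0.42), Ipp (0.44) and Csad (0.47), with a median of 1.70. The 4 members had no nearest gene in common. These are the smallest of 10090 distances, so they lie below the median by selection, and shared regulation was not tested. Klhl3 averaged 0.189 FPKM in control, 2.15 under OGD and 1.29 with A-485 added, and reached the limit of 1 FPKM through the treated groups. Fam69b averaged 2.03, 1.18 and 0.224 FPKM in the same order and reached it through control and OGD.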

How the data were processed

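RNA of BV2 cells was sequenced in 9 libraries, which were grouped by the sample labels. According to the methods, the authors filtered the reads, counted them on genes with featureCounts, computed FPKM from gene length and read count, and deposited FPKM for 54532 genes. The labels name the builds GRCm38 and mm10. Multiplied by gene length and by a divisor for each library, 100% of the deposited FPKM above 0 came out as whole reads (tolerance 0.01), and read numbers in the text are these.

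The 16123 genes averaging 0.2 FPKM or more were fitted as log2(FPKM + 0.1) by limma 3.58.1 (R 4.3.3), with 1 mean for each group over all 9 libraries and a trended prior variance. Calls used the thresholds of the study, p below 0.01 before adjustment and a log2 fold change above 0.5 in size, and Benjamini-Hochberg adjusted p-values over all tested genes are given beside. The deposited unit was FPKM, so no count test was the main test, and limma-voom on the recovered reads was an alternative. With 3 libraries against 3, the smallest p of an exact permutation test is 0.1, so none was used. The fit was tested on simulated data. Python 3.11.15 with pandas 2.3.3 and scipy 1.17.1 served for the other steps.

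The 9 genes and the gene lists were chosen with earlier results of these data known, and the lists were written by hand. All 9 genes are named, with the ligands and receptors that bind them. Of the other chemokine system genes averaging 1 FPKM or more, the 4 largest called rises and the 4 largest called falls are named, and of the remaining lists the called genes, except for a result that is not reported here. The 3 nearest genes by profile are named for each member at that level. Art3 and Zmynd15 are named because they overlap members. Ratios of neighbouring members within a library (Cxcl2 to Cxcl1, for example) were planned and not formed, since each pair held a gene below the filter. Promoters were searched over 250 bases on both strands, overlapping matches included, for the NF-κB consensus and AAANNGAAA.

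Deviations from the group means were not shared by libraries of equal replicate number (mean correlation -0.030 over 9 pairs, 0.015 over 18 pairs with different numbers), so the numbers were not taken to pair them. No 2 libraries were identical.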

Additional observations from a re-analysis of the deposited data

How the results depend on the processing

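Among 21 alternatives (a pseudocount of 1 or 0.01, no filter or a stricter one at a mean of 1 FPKM, 2 rescalings, removal of the neighbouring genes' median, separate fits for each comparison, the replicate block, no trend, limma-voom, an adjusted p under 0.05, and each library left out in turn), no direction of a called change was reversed. The calls of Cxcl2 and Ccr1 held in all 21, as did those of Cxcl10 with A-485. Cxcl2 in OGD + A-485 against OGD was called in none (-0.48 to -0.19). Its unadjusted limma p ranged from 0.00394 to 0.193, so where it lay below 0.01 only the limit on size was missed. In OGD against control, the number of members called lower went from 0 to 1 with quantile normalization, with only the groups compared, with limma-voom and with an adjusted p under 0.05, which in each case was Cxcl10, and to 1 without a trend, which was Cxcl16. With each library left out in turn it ranged from 0 to 1, and the 1 was Cxcl10 without OGD + A-485 replicate 1. In OGD + A-485 against OGD, the number called higher went from 1 to 0 at a minimum mean of 1 FPKM, since Cxcl16 was then not tested. In OGD + A-485 against control, the number called lower went from 2 to 1 with a pseudocount of 1 and ranged from 1 to 2 with libraries left out, through Cxcr4 without control replicate 1 or 3. Cxcr4 in OGD + A-485 against OGD was -0.47 with a pseudocount of 1 and was then not called. Cxcl16 in OGD + A-485 against control was called with no trend, with an adjusted p under 0.05, with limma-voom (1.15) and without control replicate 1 (1.15). The cause of the other changes was not tested. The divisors of the libraries ranged from 0.953 to 1.05 times their reads on genes. The deposited values may thus already hold a scaling between libraries, of a kind not stated. Agreement under the median-of-ratios rescaling is therefore not counted as stability.

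With the replicate block, 2 members were called higher and 0 lower in OGD against control, 1 and 3 in OGD + A-485 against OGD, and 2 and 2 in OGD + A-485 against control, the same counts as without it. The block changed no call of a member. Depth limits Cxcl1, Cxcl3, Cxcl9 and Ccr2, with at most 6 reads in a library, and leaves Cxcl16 and Cxcl10 with as few as 5 and 7 reads in a library.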
